A study of Mus musculus with 2 samples.

Results

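The genes described here are 9 genes of the complement system in microglia of sham-operated mice. They are C1qa, C1qb and C1qc, which encode the 3 chains of C1q, the components C3 and C4b, the receptors C3ar1 and C5ar1, and the regulators Cfp and Cd55. They were taken by gene symbol, with no threshold on their values, and all 9 were found among the 53801 genes of each count file. The data were 2 RNA-seq libraries, each from the sorted microglia of a single mouse, and both belong to the same group. The mice were hemizygous Cx3cr1(CreER/wt) males on a C57BL/6 background, with an age of 8 to 10 weeks in the labels. The study's methods give an older range and both sexes. Tamoxifen was injected intraperitoneally at 75 mg/kg per day for 4 days, sham surgery followed 14 days after the first injection, and cells were taken from the left hemisphere at day 3. The sample titles name the sham surgery, although the treatment field reads none. The inducible Cre sits in the Cx3cr1 locus, so these mice, called wild type in the titles, have a single intact Cx3cr1 allele, and Cre can act only in cells that express Cx3cr1. The libraries of mice with stroke were not analysed here, so the values below are sham levels and differences between 2 mice, not effects of a treatment.

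Complement is a cascade of plasma and tissue proteins that marks targets for uptake. C1q binds a target and activates the proteases C1r and C1s, which cleave C4 and C2, and the resulting enzyme cleaves C3. C3 fragments coat the target, and the small fragments C3a and C5a signal through C3aR1 and C5aR1. Properdin, the product of Cfp, stabilises the C3-cleaving enzyme of the alternative pathway, whereas CD55 speeds the decay of such enzymes on host cells. In the brain, microglia are known as a main source of C1q, and C1q and C3 are known for tagging synapses that microglia remove.

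The bases before the transcription start are shown for C1qb, the member with the highest level, and for Cfp and Cd55, the members more than 2-fold higher in library 2. Each run is the 250 bases upstream of the RefSeq start on the minus strand of GRCm38.p6, read 5′ to 3′. Capitals mark AGGAAG or its reverse complement CTTCCT, a core recognised by ETS-family factors such as PU.1. RefSeq windows were at hand for 7 of the 9 members, and those shown overlap no annotated exon.
C1qb: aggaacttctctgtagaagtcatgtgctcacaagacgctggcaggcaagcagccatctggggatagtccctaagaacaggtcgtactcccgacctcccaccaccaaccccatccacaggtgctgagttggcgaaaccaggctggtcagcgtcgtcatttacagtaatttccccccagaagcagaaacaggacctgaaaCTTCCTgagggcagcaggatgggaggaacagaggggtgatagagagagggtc
Cfp: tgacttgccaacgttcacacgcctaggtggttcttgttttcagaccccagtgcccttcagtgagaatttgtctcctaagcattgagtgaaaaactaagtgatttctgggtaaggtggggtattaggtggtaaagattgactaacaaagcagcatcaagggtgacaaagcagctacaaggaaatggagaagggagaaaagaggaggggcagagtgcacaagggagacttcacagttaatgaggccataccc
Cd55: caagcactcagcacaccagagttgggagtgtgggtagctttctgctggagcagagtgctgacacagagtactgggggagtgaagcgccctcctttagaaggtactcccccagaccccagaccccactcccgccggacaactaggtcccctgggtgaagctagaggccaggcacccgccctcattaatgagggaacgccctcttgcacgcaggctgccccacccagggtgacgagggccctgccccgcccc
These runs lie at chr4:136886201-136886450, chrX:20931556-20931805 and chr1:130462745-130462994. The C1qb window held the word once, starting 52 bases before the start site, and the Cfp and Cd55 windows did not hold it. Among the 7 members with a window, 3 held the word, namely C1qb, C1qc and C5ar1. Annotated exons covered 151 of the 250 bases of the C1qc window and 28 of the C5ar1 window. Most of the C5ar1 window also lay within the annotated gene. Over all 32851 promoter windows of the same length, 29.5% held it. The Cd55 window had 64.0% G or C and 8 CpG dinucleotides, the C1qb window 55.2% and 6, and the Cfp window 46.8% and 2.

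Library 1 held 23381026 counts on genes and library 2 held 41142609. Levels are given as CPM, the count divided by the library total and multiplied by 1000000, and 3 counts, the limit that a count of 0 allows, correspond to 0.128 and 0.0729 CPM. The 10 microglia markers, among them P2ry12, Tmem119 and Sall1, summed to 39111 and 44409.8 CPM, with none at 0. Markers of other cells were present too and differed between the libraries. The 10 neutrophil markers summed to 4461 and 60915 CPM, a 13.7-fold difference, and all 10 were higher in library 2, although the sort excluded cells with Ly6G. The 6 monocyte markers summed to 707 and 3353 CPM, but only 3 of them were higher in library 2 and 3 were lower. The 4 basophil or mast cell markers summed to 0.0855 and 161 CPM, and the 3 choroid plexus markers to 22.6 and 364 CPM, all of them higher in library 2. The sum of the 7 border macrophage markers went the other way, with 709 and 338 CPM, and 6 of them were lower in library 2. In sorted pools of this kind, RNA from fewer cells of a type and less RNA per cell cannot be told apart.

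The C1q genes were among the most abundant transcripts of these cells. C1qb reached 11947 CPM in library 1 against 10806 CPM in library 2, C1qc had 8804 and 9133 CPM, and C1qa had 4309.8 and 2859.8 CPM. Together they took 2.51% of the counts on genes in library 1 and 2.28% in library 2. C1qb and C1qc were thus within a narrow span in the 2 mice, while C1qa was lower in library 2. As means, C1qb had 11377 ± 807 CPM, C1qc 8969 ± 233 CPM and C1qa 3585 ± 1025 CPM (SD, n = 2 libraries).

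**Figure D1:**
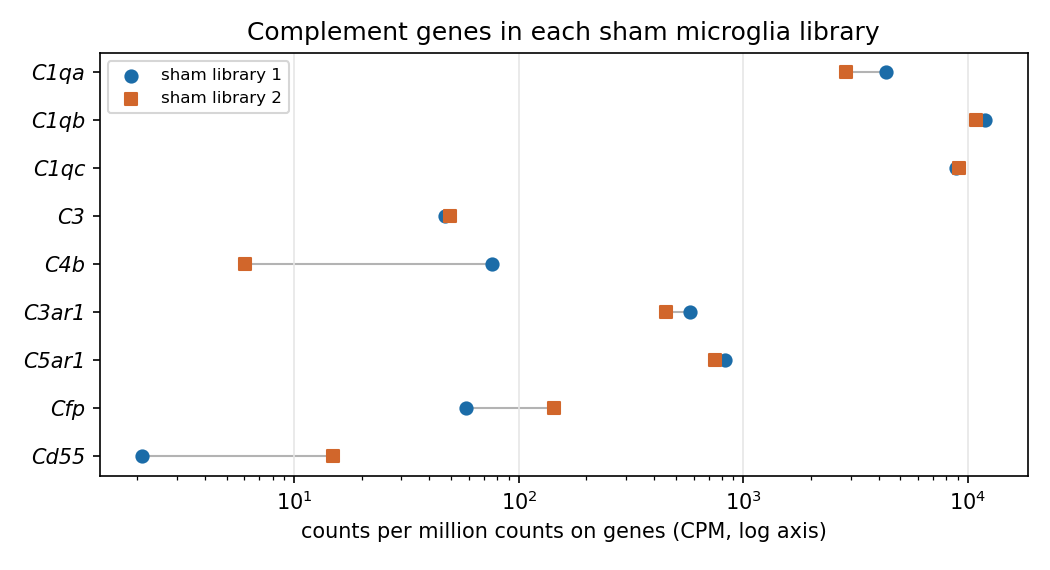
Level of each of the 9 complement genes in CPM on a log axis, with a circle for sham library 1, a square for sham library 2 and a line joining them. The C1q genes lie between 2859.8 and 11947 CPM, whereas Cd55 lies at 2.10 and 14.9 CPM and C4b at 75.6 and 6.00 CPM.

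The 3 chains are encoded side by side on the minus strand of chromosome 4 of GRCm38. C1qb (ENSMUSG00000036905) lies at 136880129 to 136886187, C1qc (ENSMUSG00000036896) at 136889804 to 136893065 and C1qa (ENSMUSG00000036887) at 136895917 to 136898803. Gaps of 3616 and 2851 bases separate them, and the cluster spans 18675 bases. No exon of these genes overlaps another listed gene, and no 75-base word of their transcripts occurs in a transcript of another listed gene. Each gene has 3 exons, which cover 1088 bases in C1qb, 1931 in C1qc and 1040 in C1qa.

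Levels of different genes were compared per kilobase of exon, because a longer transcript yields more fragments. On this scale C1qb had 10981 and 9932 CPM per kb, C1qc 4559 and 4729.7 CPM per kb, and C1qa 4144 and 2749.8 CPM per kb. They ranked 4th, 9th and 12th among the 13445 genes whose count was 10 or more in each library, called counted genes here. The ranges of neighbours in this order did not overlap, and the order was the same in both mice. C1q is built from equal numbers of the 3 chains, but their RNA levels were not equal. Per kilobase, C1qb made up 55.8% and 57.0% of the summed C1q level, C1qc 23.2% and 27.2%, and C1qa 21.1% and 15.8%. These proportions need no scaling between libraries. The proportion of C1qb was 56.4% ± 0.890 (SD, n = 2), against 18.4% ± 3.72 for C1qa and 25.2% ± 2.83 for C1qc. The length matters most for C1qc, whose exons cover 1931 bases in all but 1203 bases in the longest transcript. With the longest transcript as the length, C1qc made up 35.0% and C1qb 49.0% as means of the 2 libraries, and the order of the chains stayed the same.

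**Figure D2:**
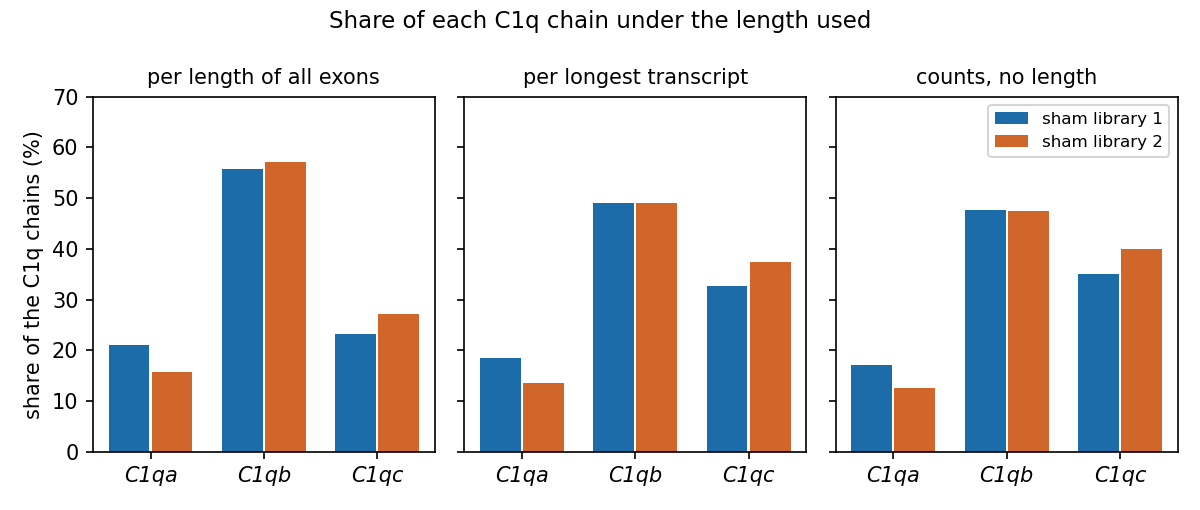
Share of each chain in the summed C1q level, in percent from 0, as bars for sham library 1 and sham library 2, under 3 choices of length. C1qb is the highest and C1qa the lowest chain in every panel, and C1qc moves from 25.2% per kilobase of all exons to 37.6% of the counts.

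The anaphylatoxin receptors came next in level. C5ar1 (ENSMUSG00000049130, chromosome 7, 16246743 to 16259540), the receptor of C5a, was measured at 831 CPM (library 1) and 744 CPM (library 2), or 787 ± 61.1 CPM (SD, n = 2). C3ar1 (ENSMUSG00000040552, chromosome 6, 122847138 to 122856161), the receptor of C3a, had 581 and 451 CPM, or 516 ± 92.4 CPM (SD, n = 2). Both receptors were at similar levels in the 2 mice. Per kilobase, C5ar1 ranked 142nd and C3ar1 387th of the 13445 genes. C5ar1 was 2.56-fold above C3ar1 on this scale, and C1qa was 11.3-fold above C5ar1, with no overlap between the libraries in either step.

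The components cleaved in the cascade were far lower than C1q. C3 (ENSMUSG00000024164, chromosome 17, 57203970 to 57228136), on which all activation routes converge, gave 1096 counts in the first mouse and 2037 in the second. Its levels of 46.9 and 49.5 CPM were close, with 48.2 ± 1.86 CPM (SD, n = 2). C4b (ENSMUSG00000073418, chromosome 17, 34728380 to 34743882) encodes C4, the substrate of C1s. C4b gave 1768 counts in the first mouse but 247 in the second, or 75.6 and 6.00 CPM, so its mean of 40.8 ± 49.2 CPM (SD, n = 2) rests on library 1. Per kilobase, C3 ranked 4135th and C4b 4907th, and their ranges overlapped because C4b was above C3 in library 1 and below it in library 2.

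The regulators also differed in level and in spread. Cfp (ENSMUSG00000001128, chromosome X, 20925454 to 20931555) gave 1353 counts in the first mouse and 5909 in the second, which is 57.9 and 144 CPM, or 101 ± 60.6 CPM (SD, n = 2). Cd55 (ENSMUSG00000026399, chromosome 1, 130439027 to 130462744) had 49 and 612 counts, which is 2.10 and 14.9 CPM, or 8.49 ± 9.04 CPM (SD, n = 2). Both were higher in library 2. Per kilobase, Cfp ranked 834th, and Cd55 was the lowest of the 9 genes at rank 8952. The range of Cd55 overlapped that of C4b.

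The 2 libraries were then compared gene by gene. Each ratio sets a single library against a single library, so no test of a condition is possible. The 95% exact (Clopper-Pearson) intervals given here cover counting error only and treat every count as independent. Amplified reads are not independent molecules, so the intervals can be too narrow even for counting error. Of the 9 members, 3 differed more than 2-fold. Among all 13445 genes counted, 31.7% did so, with 5.74% higher and 25.9% lower in library 2. Higher genes thus made up 18.1% of those past 2-fold, against 30.8% with TMM scaling and 43.3% after an adjustment for GC content and length. The median log2 ratio, library 2 over library 1, was −0.26 over all these genes and −0.14 over the members. Among genes with 1000 counts or more in each library, a limit chosen after seeing the data, 19.3% differed more than 2-fold, against 1 of the 7 members in that range. The share of 3 in 9 was near that of all genes, and nothing about the members as a group is read from it.

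C4b had the largest ratio of the 9 genes. Its log2 ratio was −3.65 (95% interval −3.85 to −3.46), a level 12.6-fold lower in library 2. After the ratio was adjusted for the GC content and length of the transcript, it was −1.92. C4b shares 22.7% of its 75-base words with its neighbour C4a, so its counts are uncertain where reads fit both genes, and C4a itself had 1 and 7 counts. The other genes counted within 100 kb of C4b, looked at after its value was seen, were 6 in number, and 3 of them were more than 2-fold lower in library 2, against 25.9% of all counted genes. These were Atf6b, which encodes a stress-activated transcription factor, with a log2 ratio of −1.91, Skiv2l with −1.59 and Ppt2 with −1.50, while Fkbpl, Stk19 and Dxo lay between 0.39 and 0.65. After the GC and length adjustment 2 of the 6 were past 2-fold, Ppt2 at −1.55 and Atf6b at −1.33, Skiv2l was at 0.07, and the median of the 6 moved from −0.55 to 0.12. Border macrophage markers, summing to 709 and 338 CPM, were lower in library 2 as well. Their part in the C4b difference was not tested.

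Cfp and Cd55 differed in the other direction. The log2 ratio of Cfp was 1.31 (95% interval 1.23 to 1.40), a 2.48-fold higher level in library 2. That of Cd55 was 2.83 (2.41 to 3.28), which is 7.10-fold higher. The interval of Cd55 is the widest of the 9 because library 1 gave only 49 counts. Cd55 shares 6.13% of its words with Cd55b and the overlapping antisense gene Gm16083, and Cd55b had 0 and 2 counts. The neutrophil markers were 13.7-fold higher in library 2, with S100a8 and S100a9 among them, and the part of neutrophil RNA in the levels of Cfp and Cd55 was not tested.

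The other 6 genes stayed within 2-fold. C1qa had a log2 ratio of −0.59 (−0.60 to −0.58), and it was also below 0 under each of 5 other scalings or adjustments, from −0.78 to −0.32. Border macrophage markers, 2.10-fold lower in library 2, moved the same way, and their part in the C1qa value was not tested. The ratios of C3ar1 (−0.37), C5ar1 (−0.16), C1qb (−0.14) and C1qc (0.05) each changed sign under at least 1 of these 5, so no direction is given for them. The ratio of C3 was 0.08, with an interval from −0.03 to 0.19 that includes 0. After the adjustment for GC content and length it was 1.56, which would place C3 among the genes past 2-fold.

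**Figure D3:**
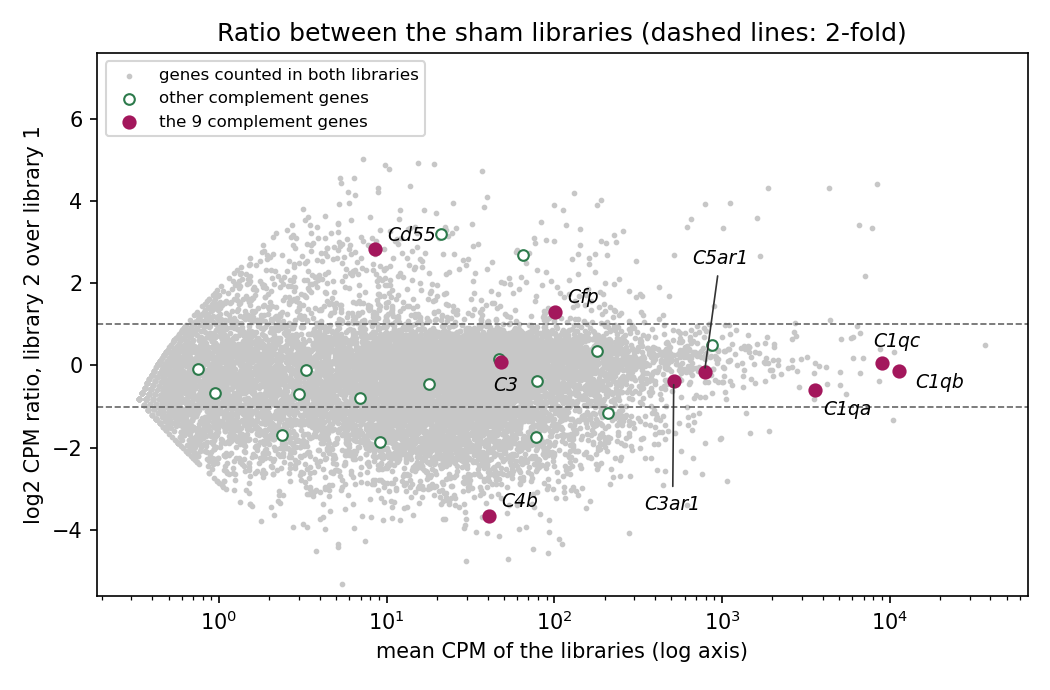
Log2 ratio of CPM, library 2 over library 1, against the mean CPM on a log axis, with the 13445 counted genes in grey, the 9 complement genes filled and the other complement genes reported here as open circles. Cd55 and Cfp lie above the upper 2-fold line, C4b lies below the lower one, and the C1q genes lie at the right end, at −0.59, −0.14 and 0.05.

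The rest of the complement pathway was read from a list of 49 further genes. Both libraries reached 10 counts for 17 of them, at least 1 library fell short for 32, and 14 had no counts in either. Of all 53801 genes in the files, 13445 reached 10 counts in both libraries. The proteases that act with C1q were low. The C1r and C1s genes together summed to 3.42 and 3.23 CPM, against 25061 and 22799 CPM for the C1q chains. Nearly all of this came from C1ra, with 80 and 130 counts. C1rb and C1s1 had no counts, and C1s2 had 0 and 3. C1ra shares 42.4% of its words with C1rb and the gene Gm18840, so its counts are uncertain. C1rb shares 49.9% and C1s1 24.8% of their words with other genes, so their counts of 0 are uncertain too. C2, the partner of C4 in the C3-cleaving enzyme, had 27 and 30 counts. Of its exons, 42.8% lie within the annotated gene Gm20547, so its counts are uncertain where reads fit both genes. A count of 0 here allows up to 3 counts, which is a limit of detection at this depth. That limit does not allow for reads that fit more than 1 gene.

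Most genes listed for the lectin and alternative routes had few or no counts, but the ficolin genes did not. Per kilobase, Fcnb ranked 1040th and Fcna 3292nd of the counted genes, both above C3. Masp1, a protease of the lectin pathway, had 3.68 and 2.28 CPM, and the lectins Mbl1, Mbl2, Colec10 and Colec11 had no counts. The ficolin gene Fcna had 20.6 and 15.2 CPM. Fcnb, a ficolin known from neutrophils and their precursors, was at 17.5 CPM in the first mouse and 112 CPM in the second, a log2 ratio of 2.68 (95% interval 2.53 to 2.83). Fcnb was therefore higher in the same library as the neutrophil markers, whose part in it was not tested. Cfb and Cfd, the proteases that start and amplify the alternative route, were close to 0. Cfb had 4 and 1 counts, and Cfd had 0 and 5. Of the exons of Cfb, 79.5% also lie in Gm20547, so its counts are uncertain where reads fit both genes. Of the 7 terminal genes, C7, C8a, C8b and C9 had no counts, Hc, which encodes C5, had 0 and 22, and C6 had 4 and 1. Only C8g was counted in both libraries, with 85 and 46 counts.

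Of the groups in the list of further genes, receptors had the largest share counted, with 7 of 10 genes. The 7 include the inhibitor gene Cr1l, so this share depends on how the groups were drawn. Itgb2, the β subunit shared by complement receptors CR3 and CR4, had 721 and 1016 CPM. Itgam, the CR3 α subunit and the CD11b antigen of the sort, had 289.9 and 131 CPM, a log2 ratio of −1.15 that was −0.90 with TMM scaling and −0.22 after the GC and length adjustment. Of its exons, 68.7% also belong to the overlapping gene Gm49368, so its counts are uncertain where reads fit both genes. Itgax, the CR4 α subunit and the CD11c antigen used to exclude cells, had 14.2 and 3.94 CPM. C5ar2, the second receptor of C5a, had 120 and 35.7 CPM, a log2 ratio of −1.75 (95% interval −1.84 to −1.66), whereas the ratio of C5ar1 was −0.16. Cr1l, which encodes the mouse complement inhibitor Crry, had 158 and 202 CPM. Vsig4, a macrophage receptor for C3 fragments, had 7 and 41 counts, and Cr2 had 2 and 5.

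Among 16 further regulators, 4 were counted in both libraries. Crry, encoded by Cr1l, was listed with the receptors and is not among these 16. Per kilobase, Crry had 15.2 and 19.5 CPM per kb, against 33.3 and 82.7 CPM per kb for Cfp. Without length the order was the reverse, with 158 and 202 CPM for Crry and 57.9 and 144 CPM for Cfp. The exons of Cr1l cover 10349 bases in all but 3859 in the longest transcript, so the order of Crry and Cfp depends on the length used. Cd55, at 0.432 and 3.07 CPM per kb, was below Crry in both libraries. Clu, which encodes clusterin, had 4.15 and 38.0 CPM, a log2 ratio of 3.20 (95% interval 2.90 to 3.51). Clusterin is abundant in choroid plexus, and choroid plexus markers were 16.1-fold higher in library 2, but their part in Clu was not tested. Among the membrane inhibitors, Cd46 had 18 and 30 counts, and Cd59a had 5 and 97. Serping1, which encodes the C1 inhibitor, had 2 and 10 counts, and Cfi, C4bp and Csmd1 had none. Csmd3, a large membrane protein with complement control domains, had 44.3 and 49.6 CPM, which is only 2.62 and 2.94 CPM per kb. Of the 17 further genes counted, 2 were more than 2-fold higher in library 2 and 4 lower, against 5.74% and 25.9% of all counted genes. Itgam, among the 4, was within 2-fold under 3 of the 5 alternatives. The 17 genes had a median log2 ratio of −0.44, against −0.26 over all counted genes.

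**Figure D4:**
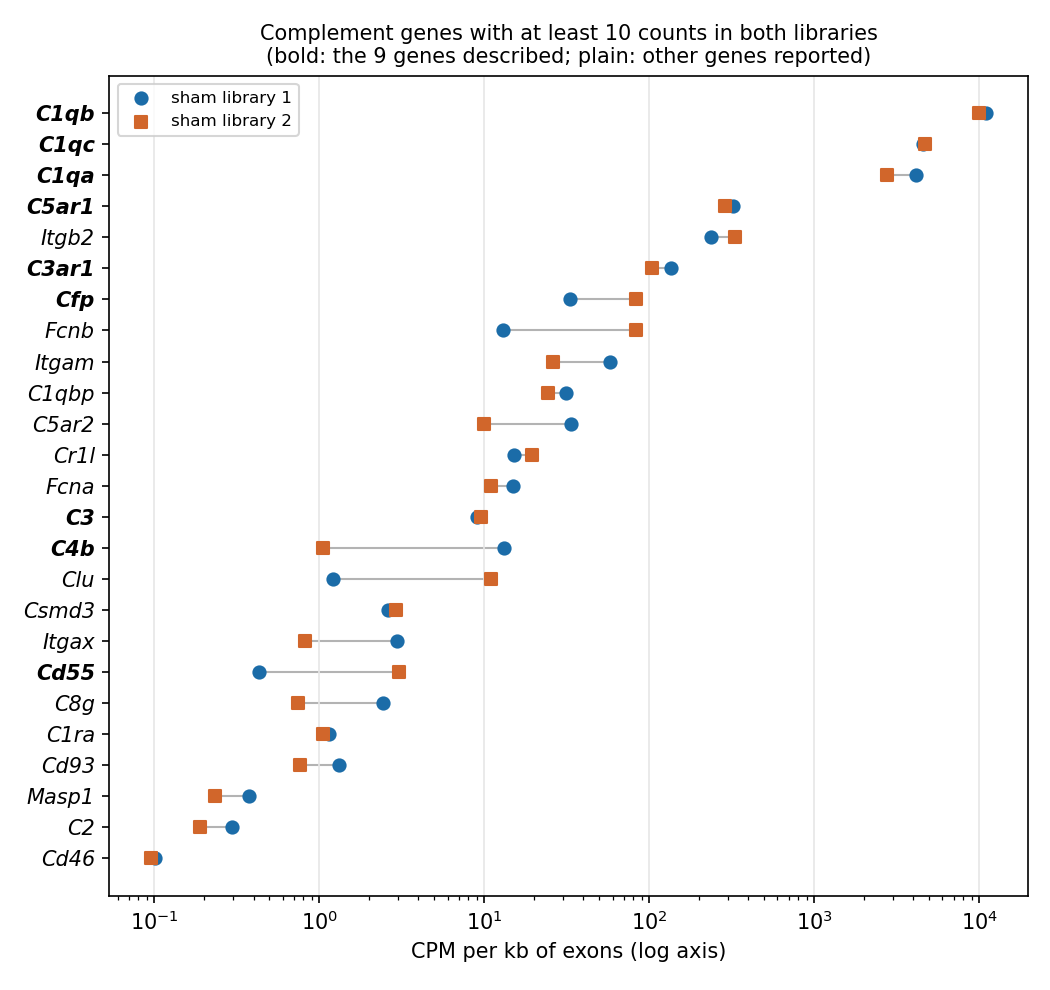
Level in CPM per kb of exons on a log axis for the complement genes reported here with 10 counts or more in each library, ordered by the mean, with a circle for sham library 1 and a square for sham library 2. The C1q genes lead, followed by C5ar1, Itgb2 and C3ar1, and the joining lines are longest for C4b, Clu, Cd55 and Fcnb.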

How the data were processed

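RNA was prepared from microglia sorted as CD11c-Ly6G-CD11b+CD45low cells. cDNA was made with the SMART-Seq HT Kit and tagmented with Nextera XT. Per the labels and the study's methods, the authors mapped reads to GRCm38 with HISAT2 and counted them with HTSeq. Each deposited file holds unnormalized counts by Ensembl gene. Versions, annotation release and strand setting are not given in the sources used here, so reads of a gene and of an overlapping antisense gene cannot be told apart. Symbols were matched for 53620 of 53801 identifiers, and exon lengths from GENCODE M21 for 53706. File starts count from 0 and were raised by 1.

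The 2 sham libraries form 1 group, so no test between groups was run. Library totals were 23381026 and 41142609 counts. CPM is the count divided by all counts on genes, times 1000000, and was divided by the union of exons in kb to compare genes. Genes with 10 counts or more in each library were kept, and a ratio past 2-fold was called. Whether members share sequence or exons with other genes was read from GENCODE M21 transcripts with 75-base words on both strands. The 5 alternatives to scaling by the total were TMM, size factors of DESeq2, a total that leaves out mitochondrially encoded genes, the summed microglia markers as the total, and a GC and length adjustment, which subtracted the median log2 ratio of counted genes in the same of 10 bins of each, or of GC content alone under 20 genes. All 9 members are named with values, and of the further complement genes those counted in both libraries may be named. Some genes of the lists are not reported here by name. Genes with lower counts, and the neighbours of C4b, were named after their values were seen. The members, lists and alternatives were chosen with earlier results of these data known. Each mouse gave 1 library, so the SD is a spread between 2 mice. Of the other marker lists read, in library 1 and library 2, B cells had 570 and 778 CPM, astrocytes 6.97 and 8.07, oligodendrocytes 98.6 and 108, neurons 2.95 and 4.86, and endothelial cells 17.5 and 15.1. The ratio calculations were tested on simulated data with independent counts. Amplification was not simulated, so that test cannot judge the width of the intervals on these reads. Tools were R 4.3.3, edgeR 4.0.16 (TMM), DESeq2 1.42.0 (size factors), Python 3.11.15, scipy 1.17.1 and matplotlib 3.10.9.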

Additional observations from a re-analysis of the deposited data

How the results depend on the processing

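No paired analysis was possible because both libraries belong to 1 group, and with 1 library a side leaving out a library gives no ratio. The summed level of the 9 members, 25431 CPM, moved by less than 1 SD under TMM, DESeq2 size factors and totals without mitochondrially encoded genes. The TMM factors of libraries 1 and 2, 1.09 and 0.917, act in opposite directions, and the DESeq2 factors were rescaled to the mean total. Under both, the mean of the 2 libraries can hardly move, so this says nothing about stability. The C1q chains gave 23930 CPM of the sum, which therefore describes mainly them. With 2 libraries, leaving 1 out always stays within 1 SD and says nothing about stability. C4b, Cfp and Cd55 differed more than 2-fold under all 5 other scalings and adjustments, and C3 joined them after the GC and length adjustment.

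The number of genes more than 2-fold higher in library 2 was 772. It was 1180 with TMM, 1248 with DESeq2 size factors, 1303 after the GC and length adjustment, 1945 without the filter on low counts, and 1689 and 395 past 1.5-fold and 3-fold. The number lower was 3485, against 1705 after the adjustment, 5357 without the filter and 1720 past 3-fold. Of the genes past 2-fold, 18.1% were higher in library 2, and 30.8% with TMM, which moved the median log2 ratio of all genes from −0.26 to −0.01. Of the 49 further complement genes, 17 were counted, and 29 with at least 1 count in both libraries.

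Per length, the C1q chains made up 97.4% of the members' summed level, and 97.7% with the longest transcript. The share of C1qb moved from 56.4% to 49.0% with the longest transcript and 47.5% without length, and that of C1qc from 25.2% to 35.0% and 37.6%. The cause of these changes is the length itself. For the GC and length adjustment, the cause was not tested. Depth limits the low genes, since a count of 0 allows up to 3 counts.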
